A study of Mus musculus with 8 samples.

Results

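The genes described here are 36 enzymes and enzyme subunits of glycolysis and of glycogen breakdown and synthesis, measured in mouse tibialis anterior muscle. They were chosen by gene name: every non-control probe whose name on the array was one of the 36 was taken, whatever its value. The array holds 37074 gene names, and 86 of its probes carry one of these 36. Of the 36 genes, 35 had 1 or more probes that 4 or more of the 8 arrays read well above background, and were tested, as were 21307 gene names in all. The gene not tested is the one the array calls Pgm1, whose single probe was well above background on no array. RefSeq (GRCm38.p6) gives that probe's transcript the name Pgm2 and gives the transcript of the array's Pgm2 probe the name Pgm1, so the names are used below as the array has them.

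The study asked how muscle gene expression differs after mice received Porphyromonas gingivalis, a bacterium of the gum pocket, by mouth. All 8 animals were male C57BL/6J mice of 14 weeks on a high-fat diet, 4 labelled control and 4 labelled P. gingivalis. The P. gingivalis mice were fed the bacteria through a needle in 100 µL of saline, over 6 weeks from the age of 8 weeks. The sources used here do not give the dose, the hour of sampling or what controls were fed. The labels do not say in so many words that each sample is a separate mouse, as is assumed here, so p-values measure only the spread between these samples. The muscle is a mixture of cells, so fewer cells of a type and less RNA per cell cannot be told apart. All arrays lay on 1 slide and 1 scan, with control arrays in slide row 1 and P. gingivalis arrays in slide row 2, so slide row and treatment cannot be told apart.

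The labels of the deposited value table go against those of the scanner files. When each column of that table was correlated with each array, every column had 1 clear partner, but only 4 of the 8 columns matched an array of their own group. The arrays that both sources place in the same group are control 1, control 2, P. gingivalis 3 and P. gingivalis 4. Groups below follow the scanner files, and results are also given on those 4 arrays, called here the arrays with agreeing labels. With 2 arrays against 2, such values are a description.

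Glycolysis splits glucose into pyruvate and yields ATP without oxygen. Skeletal muscle feeds it from blood glucose through hexokinase and from its own glycogen store through phosphorylase, and fast-twitch fibres, which make up most of this muscle, carry its enzymes at high level. Most steps have several isoforms, of which 1 is the main form in muscle (Pfkm, Aldoa, Pgam2, Eno3, Pygm and Gys1, for example), while others prevail in liver, brain, blood cells or dividing cells.

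Each probe is a 60-base sequence matching part of a transcript. Of the tested probes of these genes, 10 cover more of the genome than their own length (mm9 positions per the file headers), so each crosses at least 1 splice junction and reads joined exons. The 6 below are shown because each gives a second reading of a gene whose difference is discussed, on spliced message and apart from that gene's brightest probe.
Pkm: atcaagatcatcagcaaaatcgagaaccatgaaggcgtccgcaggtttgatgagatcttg
Gpi1: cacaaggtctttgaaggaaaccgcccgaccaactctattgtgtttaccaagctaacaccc
Pygm: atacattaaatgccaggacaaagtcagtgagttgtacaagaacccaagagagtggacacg
Pfkp: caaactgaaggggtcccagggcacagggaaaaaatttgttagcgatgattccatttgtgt
Pfkfb3: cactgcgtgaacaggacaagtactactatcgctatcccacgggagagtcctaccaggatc
Ldhb: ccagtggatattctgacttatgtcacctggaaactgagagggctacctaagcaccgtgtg
These probes lie at chr9:59518501-59519397 (plus strand), chr7:34987856-34989053 (minus), chr19:6397893-6398064 (plus), chr13:6581718-6583872 (minus), chr2:11404189-11405602 (minus) and chr6:142444206-142447028 (minus). No run of more than 11 bases was shared by probes of different genes of this set. Within a gene, the longest shared runs were 40 bases (a pair of Gpi1 probes), 17 (Gapdh) and 13 (Pgam1).

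The arrays were alike in quality. Each had 59305 non-control spots, of which 56.3% to 59.3% were well above background and none was saturated, and any pair of arrays correlated at 0.991 to 0.995 over tested probes. The 75th percentile of processed signal was 275 to 306 in control arrays and 238 to 255 in P. gingivalis arrays, and every value below is the log2 processed signal minus that percentile of its own array. All 11 fast-fibre genes were well above background on every array. So were most genes of the other marker lists, so this reading does not by itself identify the tissue. Of the marker lists of other cells, slow fibre was higher for 7 of 7 genes, fibroblast and tendon for 7 of 7, macrophage for 4 of 5, adipocyte for 5 of 6, smooth muscle for 3 of 4, erythrocyte for 2 of 6, Schwann cell for 1 of 4 and endothelial for 0 of 5, none past an adjusted p of 0.05 by limma. Neutrophil S100a8 and S100a9 lay lower in P. gingivalis muscle, with differences of -3.42 and -2.93 on the log2 scale (limma, adjusted p = 0.329 for both), with control 3 at the P. gingivalis level. The 3 tested keratinocyte genes were high on control 4 alone, with a mean centred level of 3.60 against -0.66 to -0.29 elsewhere. The part of these differences in the results was not tested.

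No gene of the set differed between the groups after correction for all 31649 probes tested. Most differences were small: 26 of the 35 tested genes had a 95% confidence interval (limma) within 1.25-fold in either direction, among them all 17 genes taken here as the main muscle isoforms of their step. Of the 35, 23 were higher and 12 lower in P. gingivalis muscle on their brightest tested probe, with a median log2 difference of 0.030. The largest differences were those of Pfkfb3 (-0.65) and Pygb (-0.40), both lower, and the largest toward a higher signal was that of Pfkfb1 (0.20).

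By limma with Benjamini-Hochberg adjustment, 0 of 35 genes passed an adjusted p of 0.05, and the lowest adjusted p was 0.411; the background was 0% of 21307 genes and 0 of 31649 probes. At an unadjusted p under 0.05 there were 4 of 35 genes (11.4%), beside 10.9% of all tested genes. Of these, 1 (Aldoa) was higher and 3 (Pygb, Pfkp, Gbe1) were lower, where the background was 4.97% higher and 5.95% lower. That split depended on scaling: it was 5 higher and 1 lower when arrays were centred on the median of tested probes, and 3 and 2 with the 75th percentile over distinct probes, a choice made after seeing the data. With an intensity trend in limma's prior variance, 10 of 35 genes (28.6%, 5 higher and 5 lower) passed an unadjusted p of 0.05, beside 12.9% of all genes, and again none an adjusted one. The 4 control and 4 P. gingivalis values did not overlap for 3 of 35 genes (8.57%), beside 6.79% of all tested genes. Gapdh and Tpi1 lay wholly higher (background 3.17%) and Pfkp wholly lower (3.61%). The shares of 11.4% and 8.57% are near the background. The brightest probes of the 4 genes at an unadjusted p under 0.05 lie at chr7:133938816-133938875 (Aldoa), chr2:150656541-150656600 (Pygb), chr13:6580589-6580648 (Pfkp) and chr16:70569840-70569899 (Gbe1) on mm9. Their exon or UTR position was not analysed here. On the arrays with agreeing labels, 0 of 35 genes passed an unadjusted p of 0.05 (8.76% of all genes), and 14 of 35 did not overlap (43.8% of all genes).

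The share of higher genes was 65.7%, beside 45.4% of all tested genes, whose median difference was -0.016. The share of higher genes also depended on processing. It was 51.4% with normexp background correction (all genes 59.9%), 54.3% with quantile normalization (49.0%), and 48.6% when a gene was the mean of its tested probes (45.6%). The mean over the 35 genes was -0.019, opposite in sign to the median, and came to -0.00023 without Pfkfb3.

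**Figure D1:**
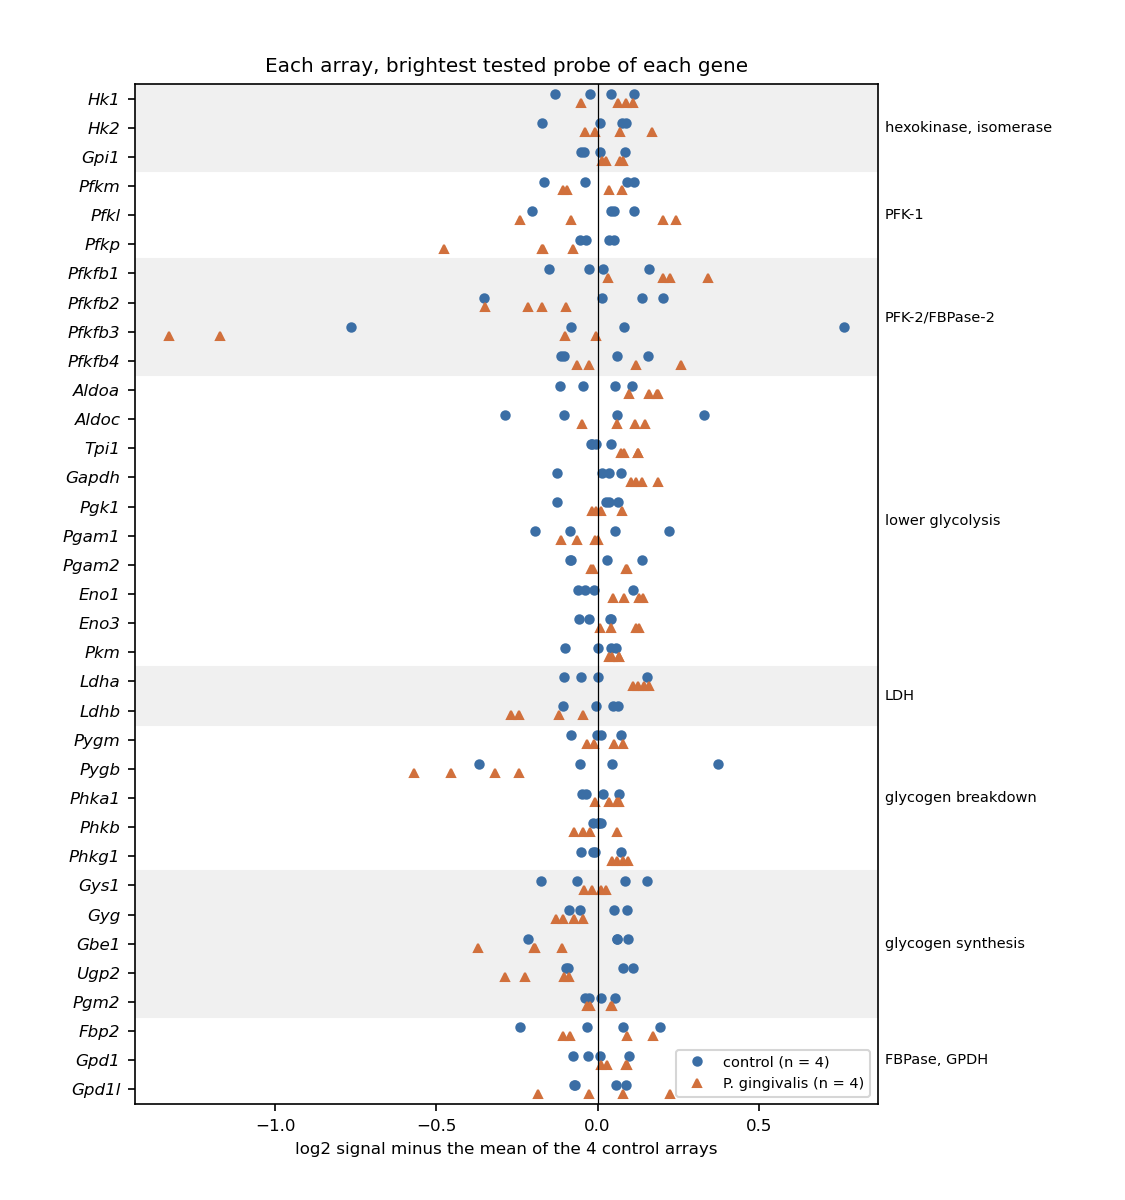
Each point is 1 array: log2 signal of the brightest tested probe of the gene minus the mean of the 4 control arrays (x axis), for 35 genes ordered by role (y axis), with circles for control and triangles for P. gingivalis. Most genes lie close to 0 on every array, Pfkfb3 spreads widest, and only Gapdh, Tpi1 and Pfkp show no overlap between groups.

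Glucose enters the pathway through hexokinase and glucose phosphate isomerase, and all 3 tested genes of this step were slightly higher in P. gingivalis muscle on their brightest probes. Hk2, the insulin-responsive muscle hexokinase, measured 4.46, 4.21, 4.47 and 4.39 in control arrays 1 to 4 and 4.46, 4.56, 4.35 and 4.38 in P. gingivalis arrays 1 to 4. Control 2 was lowest and P. gingivalis 2 highest, the other values of both groups lay among each other, and the groups overlapped, with a difference of 0.048 ± 0.081 (SE, n = 4 per group) and a limma adjusted p of 0.846. Gpi1, which turns glucose 6-phosphate into fructose 6-phosphate, measured 8.19, 8.27, 8.15 and 8.13 in controls and 8.27, 8.21, 8.26 and 8.20 after P. gingivalis. Control 2 reached the top of the P. gingivalis values, and the difference was 0.048 ± 0.058. All 4 Gpi1 probes were higher, by 0.048 to 0.18, and the junction probe shown above by 0.13, but on the arrays with agreeing labels the brightest differed by -0.0042. Hk1, the hexokinase of most tissues, gave 0.053 on its brightest probe and -0.20, -0.13 and -0.14 on the other 3. The first of these 3 lay wholly lower in P. gingivalis muscle, at 0.69, 0.69, 0.53 and 0.52 against 0.40, 0.50, 0.24 and 0.47 (limma, unadjusted p = 0.0347).

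Phosphofructokinase commits sugar to glycolysis, and its muscle form differed little while a minor form was lower. Pfkm, the muscle subunit, measured 9.25, 8.98, 9.10 and 9.23 in controls and 9.03, 9.05, 9.22 and 9.18 after P. gingivalis. The highest and the lowest of the 8 values were both controls, and the difference was -0.022 ± 0.084, with a 95% interval of -0.21 to 0.17. Pfkp, the platelet-type subunit, measured -1.30, -1.29, -1.39 and -1.37 in controls and -1.41, -1.81, -1.51 and -1.51 after P. gingivalis. Every control lay above every P. gingivalis array, though control 3 (-1.39) and P. gingivalis 1 (-1.41) were close and P. gingivalis 2 was lowest. The difference was -0.22 ± 0.092, or 0.857 of the control signal (limma, adjusted p = 0.432), and -0.21 on the arrays with agreeing labels. It was -0.14 without P. gingivalis 2 and -0.052 with normexp background correction. The other Pfkp probes did not share it: the junction probe differed by -0.031 and the third by 0.10. Pfkl, the liver subunit, differed by 0.030 on its brightest probe. Its second probe gave -0.57 without overlap (limma, unadjusted p = 0.0869), with 7 arrays between -4.49 and -4.15 and control 2 alone at -2.82.

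The bifunctional PFKFB enzymes make and remove fructose 2,6-bisphosphate, the strongest activator of phosphofructokinase, and 2 of the 4 were higher and 2 lower. Pfkfb1, which has a liver and a muscle form, measured 4.54, 4.41, 4.58 and 4.73 in controls and 4.77, 4.79, 4.60 and 4.91 after P. gingivalis. P. gingivalis 1, 2 and 4 lay above all controls and P. gingivalis 3 among them. The difference was 0.20 ± 0.091, or 1.15-fold (limma, adjusted p = 0.454), and 0.28 on the arrays with agreeing labels. Its second probe differed by 0.30 (limma, unadjusted p = 0.0279). Pfkfb1 kept its sign under all 22 other settings and left-out arrays tried. Some of these, such as the intensity trend and the replicate block, cannot change a difference. Pfkfb3, the inducible form, had the largest difference of the set, -0.65 ± 0.40, and the widest spread, with a within-group SD of 0.66. Its controls ranged from 3.74 to 5.26 and its P. gingivalis arrays from 3.17 to 4.49, with P. gingivalis 1 and 2 low and 3 and 4 among the controls. Its junction probe, a separate part of the message, differed by -0.50, with P. gingivalis 1 and 2 lowest again. On the arrays with agreeing labels, which leave out both low arrays, the difference was -0.39. It ran from -0.91 (without control 3) to -0.40 (without control 2) with 1 array left out, and was 0.26 when scanner arrays took the value table's groups and 0.16 in that table under its own labels. Pfkfb2, the heart form, differed by -0.21, -0.31 and 0.22 on its 3 probes, the second at an unadjusted p of 0.0462, and Pfkfb4 differed by 0.072 on its tested probe. A second Pfkfb4 probe was well above background on 2 control arrays and on none of the others, and was not tested.

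The lower pathway, from aldolase to pyruvate kinase, holds the most genes of any role here: 9 of 10 were higher in P. gingivalis muscle, with a median difference of 0.072, and Pgam1 was lower. As a mean of gene-centred levels, these 10 genes came to 0.018, -0.099, -0.041 and -0.019 in control arrays 1 to 4 and 0.051, 0.0095, 0.035 and 0.045 in P. gingivalis arrays. Control 1 lay among the P. gingivalis arrays and control 2 lowest. The count was also 9 of 10 on the arrays with agreeing labels, though there Pgam1 was higher (0.033) and Pgk1 lower (-0.047), and was 5 higher and 4 lower with quantile normalization, 7 and 3 over the mean of a gene's probes, and 3 and 7 when scanner arrays took the value table's groups. Of the 11 fast-fibre markers 10 were higher too, with mean centred levels of -0.14 to 0.0046 in controls and 0.019 to 0.12 in P. gingivalis muscle and no overlap, and 0 of them passed an adjusted p of 0.05 (limma). The part of fibre type in the result was not tested.

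Aldoa, the muscle aldolase that splits fructose 1,6-bisphosphate, measured 10.44, 10.29, 10.39 and 10.22 in controls and 10.52, 10.43, 10.52 and 10.49 after P. gingivalis. P. gingivalis 1, 3 and 4 lay above all controls, and P. gingivalis 2 was level with control 1. The difference was 0.16 ± 0.067, or 1.12-fold (limma, adjusted p = 0.442), and 0.14 on the arrays with agreeing labels. Its probe gave the brightest signal on all 8 arrays, so quantile normalization gives it the same value on every array and no difference. The value table holds it at 18.7 in all 8 columns.

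Tpi1, which interconverts the triose phosphates, had the tightest values of the set, 8.31, 8.25, 8.26 and 8.25 in controls and 8.39, 8.34, 8.35 and 8.39 after P. gingivalis. All P. gingivalis arrays lay above all controls, and the difference was 0.10 ± 0.052 (limma, adjusted p = 0.501), and 0.094 on the arrays with agreeing labels. The other Tpi1 probes differed by 0.14, 0.086 and, on a dim one, -0.092. Gapdh, which oxidizes glyceraldehyde 3-phosphate and is often used as a loading reference, measured 9.65, 9.59, 9.61 and 9.45 in controls and 9.71, 9.69, 9.68 and 9.76 after P. gingivalis. The groups did not overlap, with control 4 lowest, and the difference was 0.14 ± 0.063 (limma, adjusted p = 0.461), and 0.10 on the arrays with agreeing labels. All 7 Gapdh probes were higher, by 0.094 to 0.16, and 2 of them without overlap. For 6 of the 7 the file also lists another RefSeq locus (Gm12070 among them), so signal from near-identical copies cannot be told apart. Gapdh differed by 0.013 with quantile normalization and by -0.036 when scanner arrays took the value table's groups.

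Pgk1, which makes 3-phosphoglycerate, and Pgam2, the muscle mutase that carries it onward, differed by less than the SE of their differences. Pgk1 measured 8.85, 8.82, 8.66 and 8.81 in controls and 8.86, 8.77, 8.78 and 8.79 after P. gingivalis, a difference of 0.016 ± 0.064 with the groups overlapping. Pgam2 measured 9.01, 8.80, 8.91 and 8.79 in controls against 8.97, 8.86, 8.97 and 8.86, a difference of 0.037 ± 0.072, with every P. gingivalis value inside the control range. Eno3, the muscle enolase, measured 9.46, 9.36, 9.40 and 9.46 in controls against 9.43, 9.46, 9.54 and 9.55. P. gingivalis 3 and 4 were highest, and the difference was 0.075 ± 0.059, against 0.13 on the arrays with agreeing labels and -0.049 with quantile normalization. Pkm, pyruvate kinase of muscle and most other tissues, measured 8.71, 8.76, 8.75 and 8.61 in controls against 8.74, 8.77, 8.75 and 8.77 on its brightest probe, a difference of 0.053 ± 0.058. The P. gingivalis values fell inside a narrow band that 2 controls shared. The Pkm junction probe shown above was higher without overlap, at 4.70, 4.94, 5.13 and 5.02 against 5.29, 5.15, 5.21 and 5.16 (0.26 ± 0.095, limma unadjusted p = 0.0262), while the other 2 Pkm probes differed by -0.029 and 0.079. Of the minor isoforms, Eno1 differed by 0.10, Aldoc by 0.069 and Pgam1 by -0.046.

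**Figure D2:**
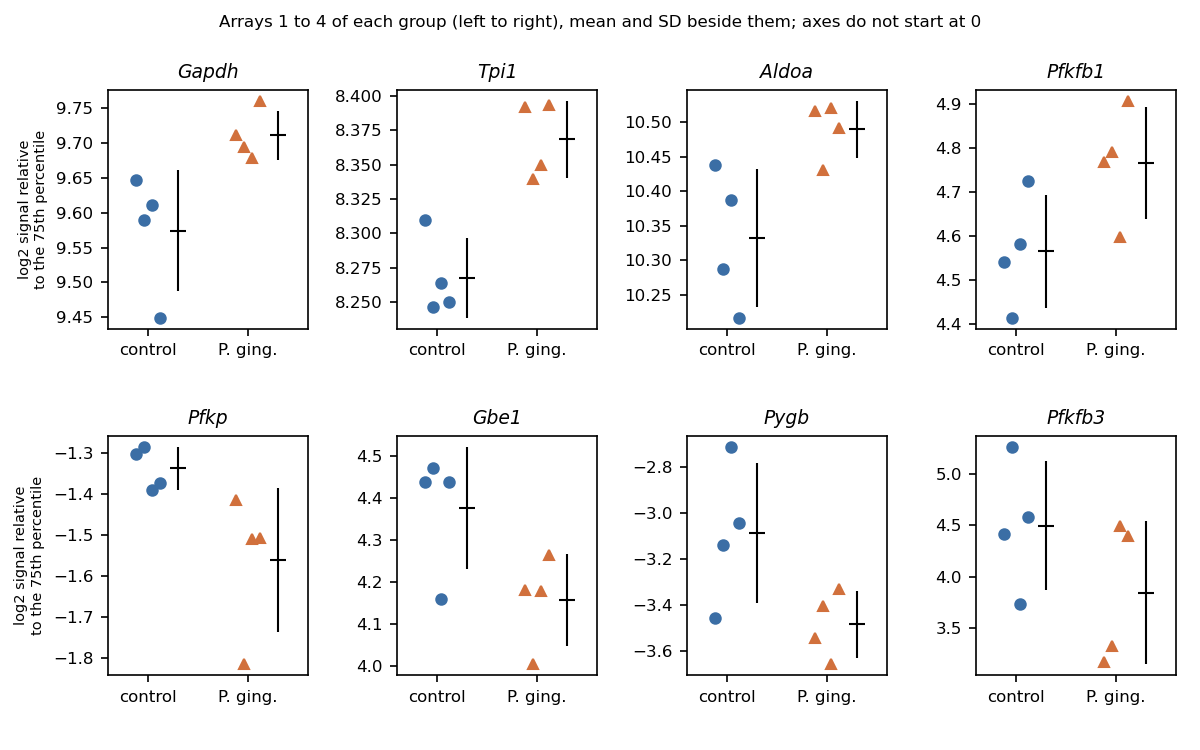
Log2 signal relative to the 75th percentile of the array (y axis, a separate range for each gene that does not start at 0) for 8 genes, with arrays 1 to 4 of each group from left to right and the mean ± SD (n = 4) beside them. Gapdh, Tpi1 and Pfkp show no overlap, Gbe1 has 1 control at 4.16 away from the other 3, and Pfkfb3 has P. gingivalis arrays on both sides of the control range's lower end.

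Lactate dehydrogenase interconverts pyruvate and lactate, and its muscle and heart subunits differed in opposite directions. Ldha, the muscle subunit, measured 9.06, 8.80, 8.91 and 8.85 in controls and 9.07, 9.05, 9.03 and 9.01 after P. gingivalis. The P. gingivalis arrays sat close together and only control 1 reached them, with a difference of 0.13 ± 0.069 (limma, adjusted p = 0.497). Ldhb, the heart subunit, measured 6.02, 5.85, 5.95 and 6.00 in controls against 5.71, 5.69, 5.91 and 5.84. P. gingivalis 1 and 2 were lowest and P. gingivalis 3 lay above control 2, with a difference of -0.17 ± 0.074 (limma, adjusted p = 0.446). The second probes gave 0.034 for Ldha and -0.047 for Ldhb, and on the arrays with agreeing labels the differences were 0.093 and -0.060. The difference between the subunits was not tested.

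Glycogen breakdown runs through phosphorylase and phosphorylase kinase, and the muscle forms of both differed little. Pygm, muscle phosphorylase, measured 9.04, 9.10, 9.02 and 8.94 in controls and 8.99, 9.01, 9.10 and 9.08 after P. gingivalis, a difference of 0.022 ± 0.061 with the groups overlapping. Its junction probe differed by 0.092 and the remaining tested probe by -0.13. Phka1 and Phkg1, the muscle regulatory and catalytic subunits of phosphorylase kinase, differed little. Phka1 measured 6.71, 6.66, 6.64 and 6.76 in controls against 6.68, 6.76, 6.76 and 6.73, a difference of 0.039 ± 0.056. Phkg1 measured 4.93, 4.85, 4.85 and 4.81 in controls against 4.91, 4.92, 4.94 and 4.96, a difference of 0.070 ± 0.055, with control 1 among the P. gingivalis values. Phkb, the shared regulatory subunit, differed by -0.020 on its brightest probe and by -0.33 and -0.093 on the others, the first of these at an unadjusted p of 0.00876. Pygb, the brain-type phosphorylase, measured -3.46, -3.14, -2.71 and -3.04 in controls against -3.54, -3.41, -3.66 and -3.33. Control 1 lay among the P. gingivalis arrays and the other 3 controls above them, a difference of -0.40 ± 0.15, or 0.760 of the control signal (limma, adjusted p = 0.411). This was the lowest p among the brightest probes of the set, on a dim probe: the difference was 0.0089 with normexp background correction and -0.20 on the arrays with agreeing labels.

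Of the glycogen synthesis genes, 4 of 5 tested were lower, with a median of -0.088 and none past the adjusted threshold. The count was also 4 of 5 on the arrays with agreeing labels. It was 5 with normexp background correction, 3 with the median of tested probes and 2 in the value table under its own labels. Gys1, muscle glycogen synthase, measured 6.07, 5.81, 5.92 and 6.14 in controls and 5.99, 6.01, 5.94 and 5.97 after P. gingivalis, a difference of -0.0058 ± 0.081, and controls 4 and 2 were the highest and lowest arrays. Gbe1, the branching enzyme, measured 4.44, 4.47, 4.16 and 4.44 in controls against 4.18, 4.01, 4.18 and 4.27. Controls 1, 2 and 4 lay above all P. gingivalis arrays, and control 3 lay below all but P. gingivalis 2. The difference was -0.22 ± 0.091, or 0.859 of the control signal (limma, adjusted p = 0.434), -0.29 without control 3 and -0.23 on the arrays with agreeing labels. All 3 Gbe1 probes were lower, the others differing by -0.068 and -0.51. Ugp2, which makes the UDP-glucose that glycogen synthase uses, measured 6.41, 6.21, 6.20 and 6.38 in controls against 6.21, 6.08, 6.20 and 6.01. Controls 1 and 4 were highest and controls 2 and 3 lay level with the top P. gingivalis arrays, a difference of -0.18 ± 0.079 (limma, adjusted p = 0.453) and -0.20 on the arrays with agreeing labels. Gyg, glycogenin, the protein primer of glycogen, differed by -0.088, and Pgm2, a phosphoglucomutase, by 0.0071. The per-array mean of the 5 genes was 0.11, 0.043, -0.053 and 0.091 in controls and -0.012, -0.098, -0.047 and -0.036 in P. gingivalis muscle. Control 3 lay at the P. gingivalis level, so the groups overlapped. Neutrophil S100a8 and S100a9 also had control 3 at the P. gingivalis level, and their part in the result was not tested.

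Fbp2, the muscle fructose bisphosphatase that runs against phosphofructokinase, and the cytosolic glycerol 3-phosphate dehydrogenases, which reoxidize NADH, were slightly higher on all 3 brightest probes. Of these 3 genes, 1 was higher and 2 lower with normexp background correction, and likewise in the value table under its own labels. Fbp2 measured 2.82, 2.71, 2.50 and 2.94 in controls and 2.83, 2.66, 2.91 and 2.64 after P. gingivalis, a difference of 0.018 ± 0.11 with full overlap. Gpd1 measured 7.45, 7.37, 7.54 and 7.41 in controls against 7.45, 7.47, 7.53 and 7.53, a difference of 0.055 ± 0.061, with control 3 at the top. Its second probe was higher by 0.20 (limma, unadjusted p = 0.0439), at 0.14, 0.24, 0.43 and 0.27 in controls against 0.62, 0.48, 0.35 and 0.45. Only control 3 lay above a P. gingivalis array there. Gpd1 kept its sign under all 22 other settings and left-out arrays tried, some of which cannot change a difference. Gpd1l differed by 0.023 on its brightest probe and by -0.22 on its other tested probe.

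The probes of a gene did not always differ alike. Of the 78 tested probes, 47 were higher and 31 lower, and 12 (15.4%) had an unadjusted p under 0.05, beside 11.2% of all probes. Among 23 genes with several tested probes, 12 had all probes on 1 side of 0 (Gapdh, Gpi1, Gbe1, Pfkfb1 and Pfkfb3 among them) and 11 did not. The 10 junction probes were 5 higher and 5 lower. Of the 10, 9 had the sign of the gene's brightest probe, 1 of them (Fbp2) being that probe itself, and Hk1 did not.

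**Figure D3:**
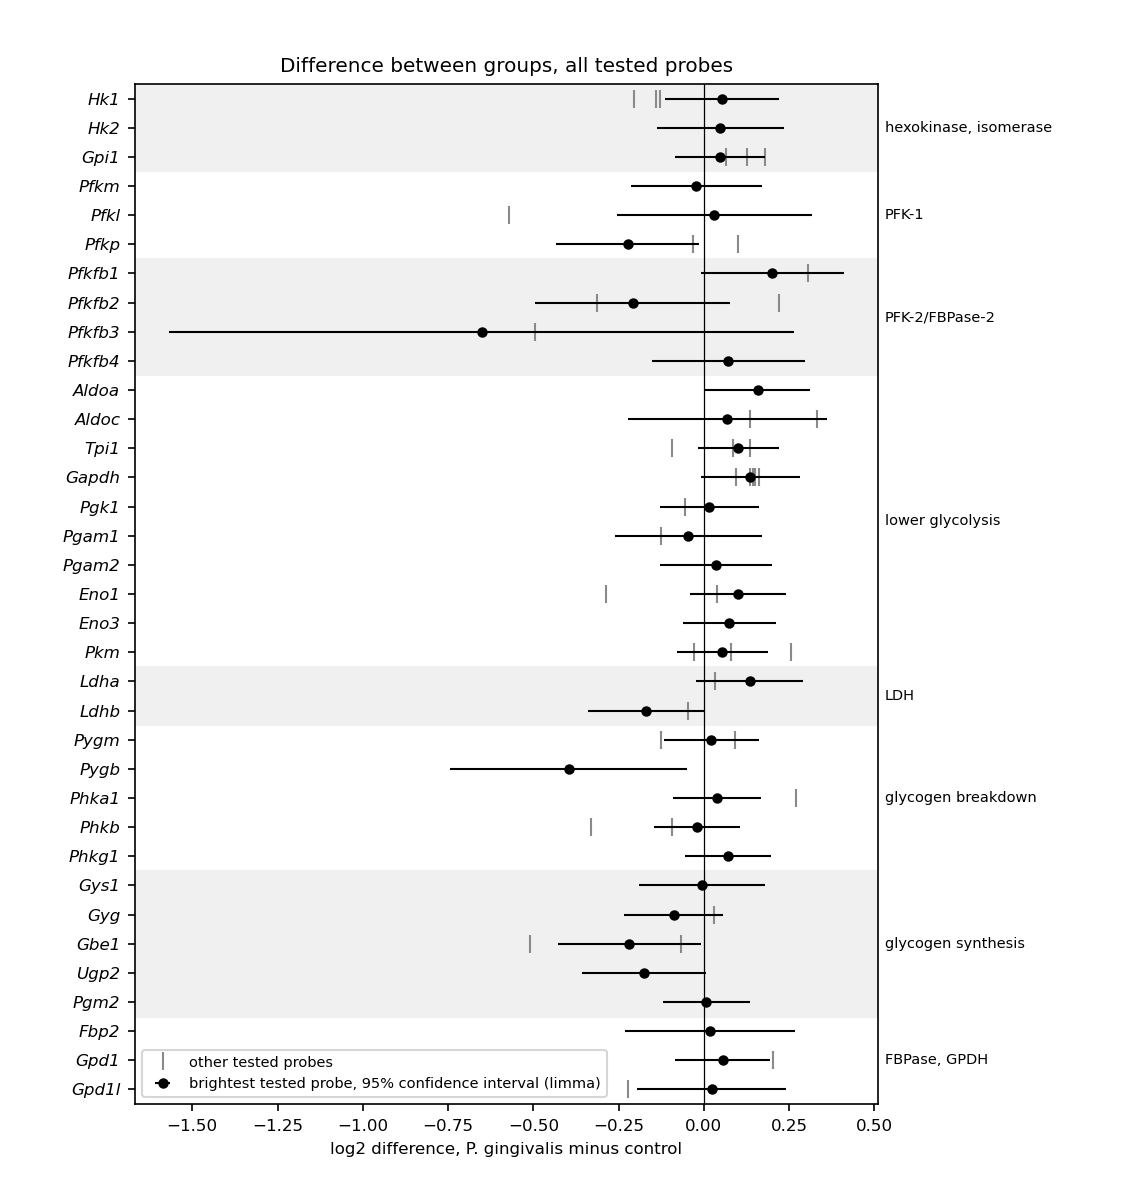
Log2 difference, P. gingivalis minus control (x axis), for 35 genes by role (y axis), with the brightest tested probe as a point, its 95% confidence interval from limma as a bar, and every other tested probe as a tick. The intervals of 31 of 35 genes include 0. The tested probes of 11 genes lie on both sides of 0. Among these, the ticks of Hk1 and Pfkl, for example, lie on the other side of 0 from their point, while those of Pfkp lie on both sides.

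The set is bright on this array: 22 of its 35 tested genes have a brightest probe in the brightest 10% of tested genes by mean probe signal, a rank that also depends on the probe itself and is no order of gene levels. Of those 22, 16 were higher, with a median difference of 0.043, beside 45.8% higher and a median of -0.0089 for all genes in that class. The 5 genes at -0.2 or lower (Pfkfb3, Pygb, Pfkp, Gbe1 and Pfkfb2) all lay below it, though Gbe1 (percentile 89.1) and Pfkfb3 (88.6) only just. The within-group SD had a median of 0.089 over the 35 genes, beside 0.14 over all tested genes and 0.077 over the brightest 10%, and ran from 0.029 (Tpi1) to 0.66 (Pfkfb3).

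**Figure D4:**
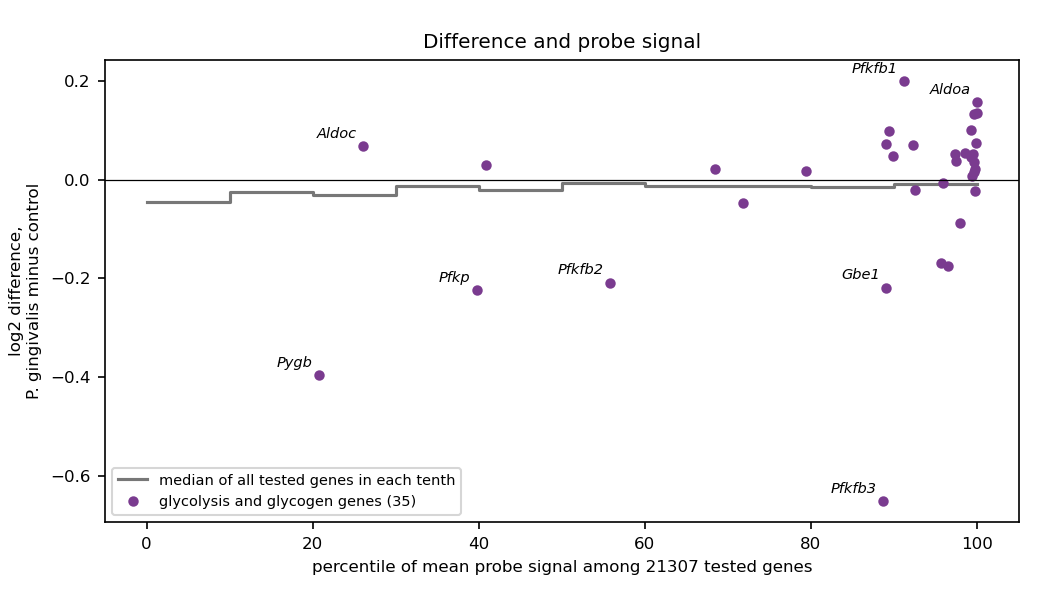
Log2 difference, P. gingivalis minus control (y axis), against the percentile of mean probe signal among 21307 tested genes (x axis), with 1 point for each of the 35 genes and a line for the median of all tested genes in each 10% class. Most points crowd above the line at the right end. The lowest, Pfkfb3, Pygb, Pfkp, Gbe1 and Pfkfb2, lie left of the brightest 10%, Pfkfb3 and Gbe1 only just.

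Taken as 1 number per array, the set did not separate the groups. The mean gene-centred level was 0.038, -0.011, -0.018 and 0.029 in control arrays 1 to 4 and -0.023, -0.043, 0.018 and 0.011 in P. gingivalis arrays, with the highest a control and the lowest P. gingivalis 2. Control 2 had the lowest value of all arrays for 12 of the 35 genes and P. gingivalis 4 the highest for 7, the most of any array in each case. By role, none of the 8 per-array means was free of overlap between groups.

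A sequence motif that the choice of these genes did not use was more frequent in their promoters than in all promoters. RefSeq promoters (GRCm38.p6, 250 bases before to 50 after the transcript start) were found for 35 of the 36 genes, 53 promoters in all. The motif ACGTG, on either strand, is the core bound by hypoxia-inducible factors and is also part of some E-boxes. It occurred in 24 of the 53 promoters (45.3%), beside 19.6% of 32851 promoters of the same length, and in 20 of the 35 genes (57.1%), beside 21.8% of 27025 genes. Aldoa, Gapdh, Ldha, Pgk1, Pkm, Pfkm and Pygm were among those with a match, and Tpi1, Gpi1, Gys1 and Phkg1 among those without one in this window. A match is a description of the letters and not a site, and neither base composition nor the number of promoters per gene was matched.

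Other genes of the pathway gave no called difference. Of 64 listed transporters, further isoforms, glycogen regulators, pyruvate-entry genes and transcription factors, 59 were tested, 32 were higher and 27 lower, 0 passed an adjusted p of 0.05 by limma, and 8 (4 higher, 4 lower, 13.6%) passed an unadjusted one, beside 10.9% of all tested genes. The groups did not overlap for 4 of the 59 (6.78%), beside 6.79% of all: Six4 and Mlxipl were lower, and Gys2 and Pdhb higher. Of the 9 tested genes of glucose and lactate transport, 7 were higher and 2 lower, with differences from -0.21 to 0.29. Slc2a4, the insulin-responsive GLUT4, differed by 0.063 ± 0.078, and Slc16a3, the lactate exporter MCT4, by 0.088 ± 0.10. On the arrays with agreeing labels these were 0.11 and 0.044.

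Both of the lower genes without overlap are transcription factors of the pathway. Six4, a homeobox factor of muscle, measured 2.34, 2.67, 2.17 and 2.28 in controls and 1.62, 1.65, 1.82 and 1.93 after P. gingivalis, -0.61 ± 0.12 or 0.654 of the control signal (limma, adjusted p = 0.309). Mlxipl, the glucose-responsive factor ChREBP, measured 4.05, 4.18, 3.96 and 4.08 in controls against 3.85, 3.86, 3.86 and 3.88, -0.20 ± 0.063 (limma, adjusted p = 0.354), with the P. gingivalis arrays close together. On the arrays with agreeing labels these differences were -0.63 and -0.25. Among the related genes of lowest p, the liver forms of phosphorylase and synthase were higher, Pygl by 0.36 and Gys2 by 0.40. So was Ppp1r3b, a glycogen-targeting subunit of protein phosphatase 1, by 0.33. The whole list of 21 other glycogen enzymes and regulators had 11 higher and 10 lower, with a median of 0.013. Pdhb, a subunit of pyruvate dehydrogenase, was higher by 0.14, while Eno2, the neuronal enolase, and Slc2a12, the transporter GLUT12, differed by -0.34 and -0.21. The probes of Gys2 and Eno2 were dim, at means of -3.37 and -2.85 in controls and -2.97 and -3.20 after P. gingivalis. On the arrays with agreeing labels, Pygl differed by 0.49, Gys2 by 0.50, Ppp1r3b by 0.45, Pdhb by 0.22, Eno2 by -0.073 and Slc2a12 by -0.13, so the Eno2 and Slc2a12 differences were smaller there. None of these 8 passed the adjusted threshold (limma, adjusted p = 0.309 to 0.435).

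**Figure D5:**
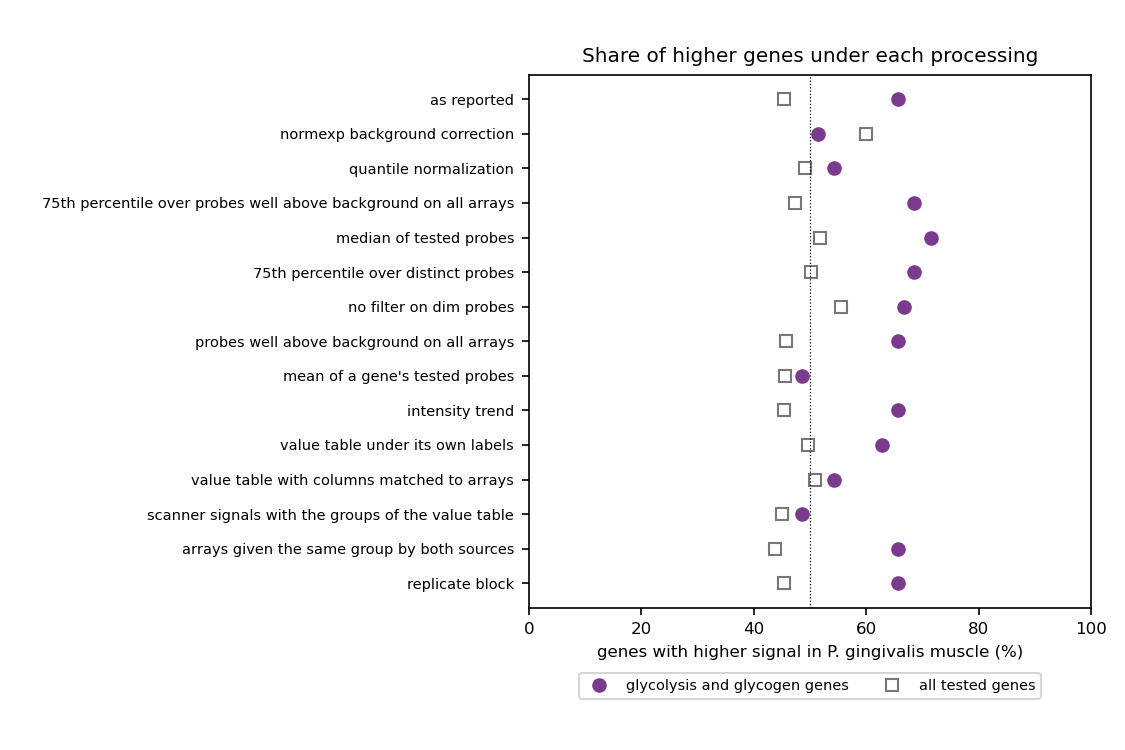
Share of genes with a higher signal in P. gingivalis muscle (x axis, percent) under each processing (y axis), with filled circles for the 35 tested glycolysis and glycogen genes (36 with no filter) and open squares for all tested genes. The set lies at 65.7% as reported and between 48.6% and 71.4% under the other settings, and falls below all genes with normexp background correction.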

How the data were processed

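Total RNA of 8 muscles, 200 ng each, was labelled with 1 dye (Cy3) per the labels' protocols. The authors deposited spot intensity values from Agilent Feature Extraction, background-subtracted and not scaled between arrays. The submitters' processing notes give its version as 11.1, and the file headers give 11.0.1.1 for grid placement. Their deposited value table gives log2 values of 24764 probes, with column medians of 7.357 to 7.374, whose scaling is not given in the sources used here. Its columns run in the same direction as the arrays they match (correlations of 0.833 to 0.88, next best at most 0.0784).

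From the processed intensity, log2 was taken and centred on the 75th percentile of non-control spots of that array, outlier spots (0.108% to 0.218%) were left out, and spots of a probe averaged. Probes well above background on at least 4 of 8 arrays, by more than 50% of their spots, were tested with limma 3.58.1 in R 4.3.3 (lmFit, eBayes, no covariate, two-sided), with Benjamini-Hochberg adjustment over 31649 probes. A gene is its brightest tested probe. Alternatives changed the background correction (normexp, offset 50), scaling, filter, probe rule, prior variance, labels, block or arrays used. The fit was tested on simulated data.

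The genes, related genes and marker lists were chosen with earlier results of these data known. Values on each array are given for the 10 genes of lowest p, those without overlap, and the main muscle isoforms. Probe differences are given where probes of a gene disagree and any has an unadjusted p under 0.05, and some further probes were named after their values were seen. Of the related genes, the 8 of lowest p, Slc2a4 and Slc16a3 are named, and 1 further gene that the rule lists is not reported here.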

Additional observations from a re-analysis of the deposited data

Results flagged for a closer look

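Of 70 groups of 4 arrays (each of the 35 genes in each group), 1 held a value far from the rest by Dixon's test at the 95% level: Gbe1 in control 3, at 4.16, where the nearest other control was 4.44. Chance gives about 1 in 20 groups, or 3.5 of 70. Without control 3 the Gbe1 difference was -0.29.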

How the results depend on the processing

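No alternative or left-out array tried gave any member gene, or any related gene it tested, an adjusted p under 0.05 (limma). Over all probes the count at that threshold, 0 as reported, was 14 with normexp background correction, 2 with no filter on dim probes, 2 with an intensity trend and 1 in the value table with columns matched to arrays. The count at an unadjusted p under 0.05 was 4 as reported. It was 2 with quantile normalization (5.71%, all genes 10.95%) and 2 with no filter on dim probes (5.56%, all genes 8.11%). It was 6 with normexp background correction (17.1%, all genes 27.8%) and 6 with the median of tested probes (17.1%, all genes 10.8%). It was 7 over the mean of a gene's tested probes (20.0%, all genes 10.9%) and 10 with an intensity trend in the prior variance (28.6%, all genes 12.9%). In the value table with columns matched to arrays it was 1 (2.86%, all genes 11.3%). It was 0 in that table under its own labels (all genes 3.52%), with scanner arrays in its groups (3.75%), and on the arrays with agreeing labels (8.76%). With 1 array left out the count ranged from 1 to 4 (2.86% to 11.4%), with all genes at 8.60% to 12.2%. It was 1 without control 4 or without P. gingivalis 2 and 2 without control 3 or any of P. gingivalis 1, 3 and 4. Only without control 2 was the set's share above that of all genes. The count of genes whose groups did not overlap, 3 as reported, was 1 with normexp background correction (2.86%, all genes 16.96%). It was 1 in the value table under either labelling (2.86%), with all genes at 2.27% under its own labels and 6.803% with columns matched. It was 0 with scanner arrays in that table's groups (all genes 2.403%) and 14 with 2 arrays against 2 (40%, all genes 43.77%). With 1 array left out it was 3 to 8 (8.57% to 22.86%), with all genes at 9.87% to 13.02%. In those fits the set's share was below that of all genes only without control 4 or without P. gingivalis 4. Fewer arrays also raise the share of all genes. The median difference, 0.030 as reported, was -0.0042 with scanner arrays in the value table's groups, -0.0036 over the mean of a gene's tested probes, 0.0017 with normexp background correction, 0.0018 with quantile normalization, 0.0081 in the value table with columns matched to arrays, and 0.021 to 0.040 with 1 array left out.

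The replicate numbers do not pair the samples: same-numbered arrays correlated at 0.0069 to 0.063 in their deviations from the group means, and only number 1 correlated best with its own number. With the replicate number as a block, 1 of 35 genes (2.86%) had an unadjusted p under 0.05 (limma), beside 10.4% of all genes.

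Log2 differences of genes named with values on each array changed sign as follows. The cause was not tested, except that the value table lacks the brightest probe of 5 genes (Eno1, Gapdh, Gpi1, Gyg and Tpi1) and gives another. When scanner arrays took the value table's groups, Aldoa -0.014, Fbp2 -0.0075, Gapdh -0.036, Gpi1 -0.052, Gys1 0.021, Hk2 -0.024, Ldha -0.042, Ldhb 0.11, Pfkm 0.11, Pfkp 0.0089, Pgam2 -0.027, Pgk1 -0.063, Phkg1 -0.013, Pkm -0.026, Pygb 0.20 and Tpi1 -0.0077. With quantile normalization, Eno3 -0.049, Gys1 0.0018, Pgam2 -0.018, Pgk1 -0.038 and Pygm -0.073. With normexp background correction, Fbp2 -0.017, Hk2 -0.016, Pgam2 -0.020, Phka1 -0.046 and Pygb 0.0089. In the value table under its own labels, Fbp2 -0.0073, Gapdh -0.085, Gbe1 0.018, Gpi1 -0.013, Gys1 0.052, Hk2 -0.016, Ldhb 0.15, Pfkm 0.16, Pfkp 0.035, Pgam2 -0.057, Pgk1 -0.038, Phkg1 -0.0009, Pygb 0.10, Pygm -0.0043 and Ugp2 0.014. On the arrays with agreeing labels, Gpi1 -0.0042, Gys1 0.015, Pfkm 0.083 and Pgk1 -0.047. With the 75th percentile of probes well above background, Gys1 0.0003. With the median of tested probes, Gys1 0.016. With the 75th percentile of distinct probes, a choice made after seeing the data, Gys1 0.011. In the value table with columns matched to arrays, Gys1 0.020, Pgam2 -0.033 and Pgk1 -0.0045. Over the mean of a gene's tested probes, Pgk1 -0.020 and Pygm -0.0036. With 1 array left out, Fbp2 ranged from -0.062 to 0.082, Gys1 from -0.064 to 0.045, Hk2 from -0.0094 to 0.077, Pfkm from -0.078 to 0.015, Pgk1 from -0.026 to 0.037 and Pygm from -0.0057 to 0.047. The number of arrays limits precision: the median SE was 0.073.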
